A study of Homo sapiens with 6 samples.

Results

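The peroxiredoxins and the thioredoxin proteins that recharge them form one chain of electron transfer against hydrogen peroxide. 10 genes of this chain were chosen by name: the 6 peroxiredoxins PRDX1 to PRDX6, the thioredoxins TXN and TXN2, the thioredoxin reductase TXNRD2 and the thioredoxin inhibitor TXNIP. All 10 were present in the table of 38648 genes and gene copies, each with 1 entry and with counts in every library. The rule that picked them used no measured value.

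Bulk RNA-seq was performed on HK-2 cells, an immortalized human line derived from the proximal tubule of the kidney. All 6 libraries came from cells given 8 Gy of X-rays and collected 7 days later. The control group, IR+NC-LV (n = 3), carried a negative control lentivirus, and IR+PR-LV (n = 3) carried a lentivirus that overexpresses PRDM16, a histone methyltransferase and transcriptional regulator. Both lines were selected with puromycin after transduction, and no source used here describes separate transductions or separate irradiations behind the libraries of a group, so that p-values measure only the spread between these libraries. Since both groups were irradiated, the comparison asks what the PRDM16 virus changed in irradiated cells and carries no measure of the effect of radiation.

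Library totals ran from 13407074 to 28540041 counts. PRDM16 had 0 to 2 counts in the control libraries and 8 to 14 in those of IR+PR-LV, too few for the test. The epithelial genes KRT8 (811 and 857 TPM in the control and PRDM16 groups) and KRT18 (613 and 650.3 TPM) and the renal factor PAX8 (136 and 139 TPM) were abundant, whereas CDH1, the epithelial cadherin, averaged 0.343 and 0.496 TPM. Of 10 proximal tubule markers, by contrast, 7 averaged below 1 TPM in both groups, among them the defining genes LRP2, CUBN and SLC22A6. Besides PAX8, the markers above that level were GGT1 (74.4 and 65.4 TPM) and AQP1 (2.82 and 3.01 TPM). Of the fibroblast markers, COL1A1 averaged 10.6 and 10.4 TPM. The other fibroblast markers and all endothelial markers examined averaged below 1 TPM in both groups. Of the 4 blood cell markers, PTPRC and CD3E had 0 to 3 counts a library, and HBB had 25 counts in IR+PR-LV library 1 and 1 to 5 in the others. CD68, also a lysosomal gene of other cells, averaged 193 TPM in the controls and 161 TPM with PRDM16. IR+PR-LV library 1 stood apart: over 9807 genes its median absolute log2 difference was 0.149 from its own group and 0.129 from the control group, and IR+NC-LV library 3 was the farthest from its group among the controls (0.119).

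Thioredoxin is a small protein that reduces disulfide bonds with a pair of neighbouring cysteines and is then reduced again by thioredoxin reductase at the expense of NADPH. Peroxiredoxins destroy hydrogen peroxide with a reactive cysteine, and most of them return to their active form by handing the resulting disulfide to thioredoxin. The chain runs in parallel in the cytosol, through TXN, and in mitochondria, through TXN2 and TXNRD2, and the proximal tubule is one of the tissues richest in mitochondria. TXNIP binds reduced thioredoxin, blocks it and restrains glucose uptake, and its gene is known for its induction by glucose.

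The chemistry of the chain is visible in the coding sequence. The stretches below, read from GENCODE 29 transcripts on GRCh38 in the coding direction, are shown because they hold the residues through which electrons pass. Capitals mark the codons of the catalytic cysteines, a pair in the thioredoxins and the peroxide-reacting one in each peroxiredoxin, and in TXNRD2 the TGA that is read as selenocysteine.
TXN: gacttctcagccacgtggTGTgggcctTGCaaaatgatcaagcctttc
TXN2: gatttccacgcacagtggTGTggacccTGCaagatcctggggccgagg
PRDX1: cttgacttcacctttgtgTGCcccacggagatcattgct
PRDX2: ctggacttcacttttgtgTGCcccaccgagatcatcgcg
PRDX3: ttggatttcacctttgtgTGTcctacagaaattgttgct
PRDX4: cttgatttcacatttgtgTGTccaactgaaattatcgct
PRDX5: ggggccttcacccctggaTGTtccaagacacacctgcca
PRDX6: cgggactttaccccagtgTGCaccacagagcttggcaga
TXNRD2: gaccccacggtgacaggctgcTGAgggtaa

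The capitals are codons 32 and 35 of TXN, codons 90 and 93 of TXN2, codon 52 of PRDX1, 51 of PRDX2, 108 of PRDX3, 124 of PRDX4, 100 of PRDX5 and 47 of PRDX6, counted from the start codon. In TXNRD2 the selenocysteine codon was number 523 of 524, directly before the last. Coding sequences were then aligned in pairs, and identity was taken over the aligned bases only, gaps left out. By this measure PRDX1 and PRDX2 were the closest pair, with 72.4% identical bases, and PRDX4 and PRDX6 the most distant, with 51.9%. PRDX4 matched PRDX1 at 66.1% of bases and PRDX3 matched PRDX1 at 63.7%, while PRDX5 and PRDX6 stayed between 51.9% and 57.3% against every other peroxiredoxin. TXN and TXN2 had 55.0% of 318 aligned bases in common, where the coding sequence of TXN2 has 501 bases.

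Each window lies in coding exons. Those of TXN (chr9:110251364-110251411, minus strand), PRDX1 (chr1:45515740-45515778, minus), PRDX2 (chr19:12801002-12801040, minus), PRDX6 (chr1:173481351-173481389, plus) and TXNRD2 (chr22:19877105-19877134, minus) lie within 1 exon. Those of TXN2 (chr22:36476823-36480588, minus), PRDX3 (chr10:119173842-119174458, minus), PRDX4 (chrX:23671639-23675020, plus) and PRDX5 (chr11:64319842-64320672, plus) cross 1 intron and join 2 exons.

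Runs of identical bases within the peroxiredoxins and within the thioredoxins were short. Over whole transcripts, the longest run of identical bases was 17, between PRDX1 and PRDX4, among the pairs compared. These were the peroxiredoxins with each other and TXN with TXN2. All stretches of 100 bases in the representative transcript of each member occurred in no other annotated gene, the longest match being 76 bases between PRDX2 and its pseudogene PRDX2P4. The exons of PRDX1 share 364 bases (28.5% of their length) with MMACHC on the opposite strand, a gene with 162 to 305 counts a library. No source used here states whether counting used strand, so reads in this overlap cannot be assigned with certainty.

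Expression levels of the chain spanned a 132-fold range in TPM. TPM, a count per gene length brought to a common sum, serves to compare levels of different genes. The length used was that of all annotated exons of a gene. For TXNRD2 this was 4953 bases, beside 2115 in its representative transcript, and for TXN 737 beside 869. The size of the range thus depends on the length used. TXN headed the order with a mean of 2062 TPM over the 6 libraries, rank 45 of the 28831 table entries with at least 1 count, followed by PRDX1 with 1869.5 TPM (rank 55). PRDX3 (589.7 TPM, rank 234), PRDX6 (588 TPM, rank 236) and PRDX4 (577 TPM, rank 241) formed a middle tier, and TXNIP came next with 403 TPM (rank 371). PRDX5 (255.8 TPM, rank 669), PRDX2 (144 TPM, rank 1356), TXN2 (60.5 TPM, rank 3327) and TXNRD2 (15.6 TPM, rank 7782) closed the list.

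The order was firm at its lower end. The ranges of PRDX5, PRDX2, TXN2 and TXNRD2 over the 6 libraries did not overlap with those of their neighbours. TXN and PRDX1 overlapped, with TXN above PRDX1 in 5 of 6 libraries, and so did PRDX3 with PRDX6, PRDX6 with PRDX4, and PRDX4 with TXNIP. The mitochondrial partners of PRDX3 were thus far less abundant as transcripts than PRDX3 itself, in every library.

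**Figure D1:**
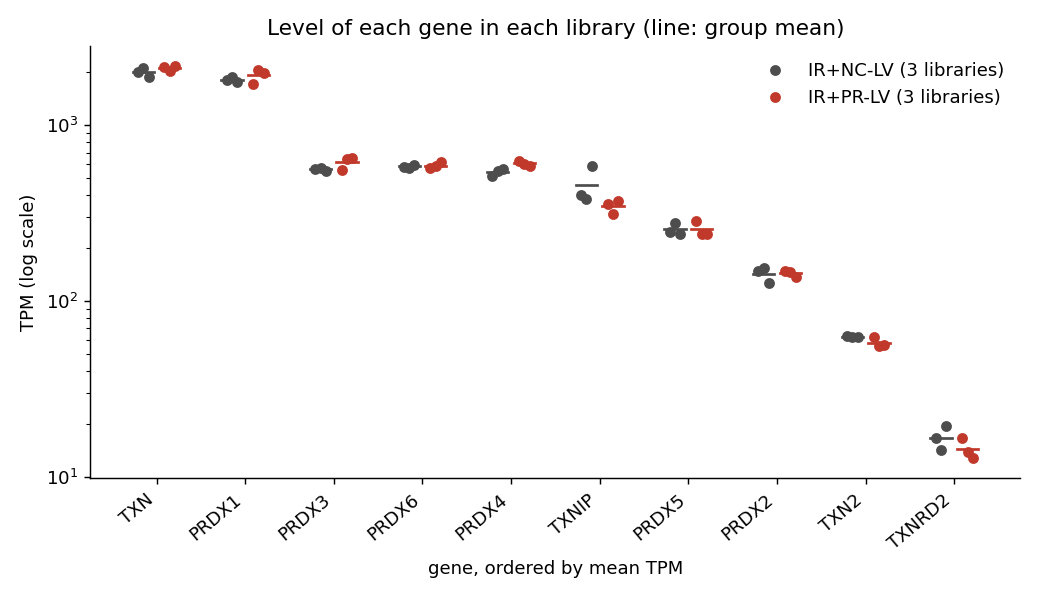
Levels of the 10 genes in TPM on a log axis, with 1 point for each library of IR+NC-LV and IR+PR-LV and a line at each group mean. TXN and PRDX1 lie near 2000 TPM and TXNRD2 near 15 TPM, and the groups overlap for all genes but TXNIP, PRDX4 and TXN2.

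Next, the groups were compared by edgeR's quasi-likelihood test over all 15340 genes and gene copies that passed the filter on low counts, with Benjamini-Hochberg adjustment. All 10 members passed the filter. None of the 10 was called at an adjusted p below 0.05, against 10 genes (0.0652%) of all those tested (0.0196% higher and 0.0456% lower), and the smallest adjusted p of a member was 0.348. At an unadjusted p below 0.05, 2 of the 10 stood out (PRDX4 higher, TXNIP lower), against 10.5% of all genes tested (4.55% higher and 5.97% lower). DESeq2 also called 0 of the 10 and gave 3 at its unadjusted p, PRDX3 being the third, against 4.71% of the 28831 entries it fitted. That share includes entries with too few counts for the edgeR test, unlike the 10 members. The same 2 members were those whose groups did not overlap in normalized CPM, against 17.0% of all genes tested (7.46% higher and 9.54% lower). In direction, IR+PR-LV had 7 members higher and 3 lower, beside 7839 higher and 7501 lower of all genes tested. The median log2 fold change of the members was 0.05, beside 0.0044 over all genes tested. In bulk RNA, a change in the number of cells of a type and a change in RNA per cell cannot be told apart.

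**Figure D2:**
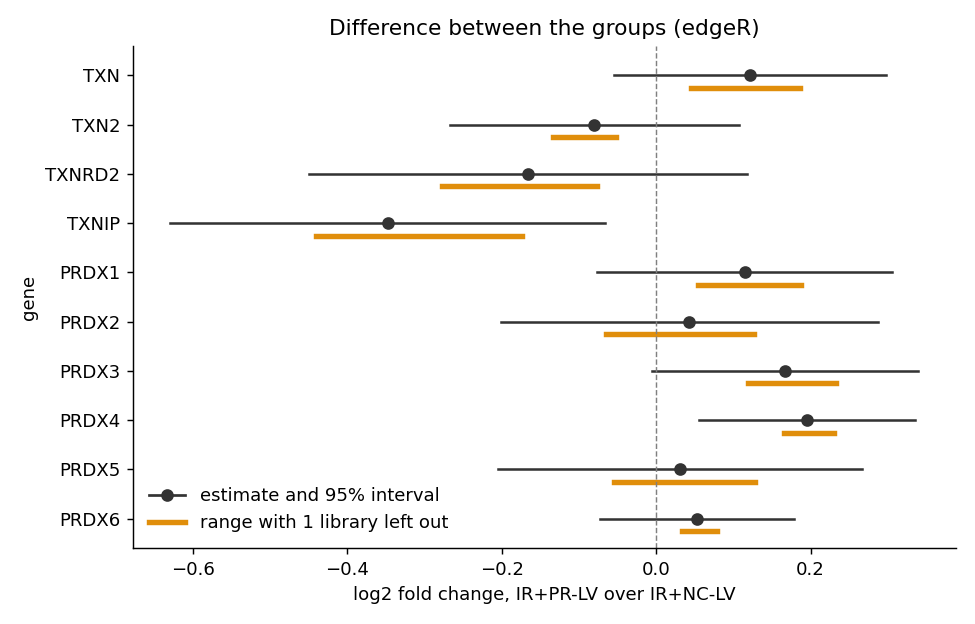
Log2 fold changes of the 10 genes (IR+PR-LV over IR+NC-LV) from edgeR, with 95% confidence intervals, a line at 0 and, below each, a bar for the range with 1 library left out. The intervals of TXNIP, at -0.35, and PRDX4, at 0.20, exclude 0 before adjustment, and the other 8 include it.

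TXNIP (chr1:145992435-145996579, minus strand, 3302 exon bases) had the largest difference of the 10. Its level in IR+NC-LV was 403 TPM in library 1, 383 in library 2 and 587 in library 3, with a mean of 457 ± 113 TPM (SD, n = 3). In IR+PR-LV it was 358, 313 and 372 TPM, with a mean of 348 ± 31.1 TPM (SD, n = 3). All 3 PRDM16 libraries lay below the lowest control, and control library 3 stood well above the other two controls. The log2 fold change was -0.35 ± 0.12 (SE), a level 0.786 times that of the controls with a 95% interval of 0.646 to 0.956. edgeR gave an unadjusted p of 0.0210 and a Benjamini-Hochberg adjusted p of 0.397, so that TXNIP was not called.

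The value depended on single libraries. Without IR+NC-LV library 3 the log2 fold change of TXNIP was -0.17, with an unadjusted edgeR p of 0.0440, and without IR+PR-LV library 2 the unadjusted edgeR p was 0.0735. The gene had 6187 to 9063 counts a library, a counting error of at most 1.27%, beside a coefficient of variation between control libraries of 19.6%. With no filter on low counts TXNIP was called, with a log2 fold change of -0.34 and an edgeR Benjamini-Hochberg adjusted p of 0.0325, and over all settings its adjusted p lay between 0.0325 and 0.842.

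TXN (chr9:110243810-110256507, minus strand, 737 exon bases), the cytosolic thioredoxin and the protein that TXNIP binds, was measured at 2013, 2112 and 1875 TPM in the controls. The PRDM16 libraries gave 2146, 2040.2 and 2185 TPM, which overlapped with the controls through library 2. TXN thus had a log2 fold change of 0.12 ± 0.08 (SE), and the edgeR Benjamini-Hochberg adjusted p was 0.628.

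Set against TXN within each library, TXNIP also lay apart. The controls held 0.200, 0.181 and 0.313 TXNIP transcripts per TXN transcript, and the PRDM16 libraries 0.167, 0.153 and 0.170. The ratio thus stood lower in each PRDM16 library than in any control, with a difference in mean log2 ratio of -0.46. The 2-sided exact permutation test gave p = 0.1, the smallest that 3 against 3 allows, so that this design cannot reach 0.05. Without IR+NC-LV library 3 the difference was -0.22.

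**Figure D3:**
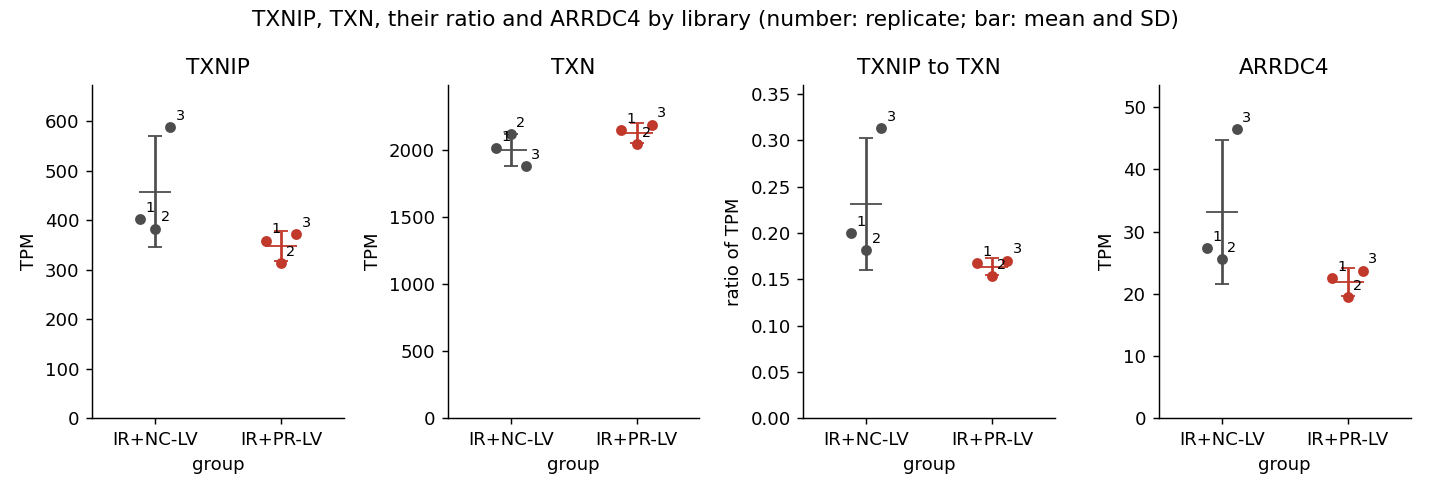
TXNIP, TXN, the ratio of TXNIP to TXN, and the TXNIP relative ARRDC4 by library and group, in TPM or as a ratio of TPM, with 1 point a library, replicate numbers beside the points and bars for the mean and SD (n = 3). Control library 3 is the highest point for TXNIP (587 TPM), the ratio (0.313) and ARRDC4 (46.5 TPM), in which all PRDM16 libraries lie below the controls, whereas the groups overlap for TXN.

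The promoter of TXNIP carries the best known of its control sites, the carbohydrate response element, through which the glucose-sensing factors MLXIP and MLXIPL act together with MLX. The 250 bases before the RefSeq start site, at chr1:145996580-145996829 on the minus strand of GRCh38.p14, are shown because they hold this site, in capitals, from position -88 to -72.
TXNIP: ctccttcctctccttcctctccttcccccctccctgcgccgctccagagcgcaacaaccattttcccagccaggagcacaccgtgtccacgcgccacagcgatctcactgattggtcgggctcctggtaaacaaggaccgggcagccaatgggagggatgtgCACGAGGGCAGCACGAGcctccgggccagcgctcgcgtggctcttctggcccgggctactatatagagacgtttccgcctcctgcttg

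The site was found by a search for a pair of CACGNG separated by any 5 bases, on both strands, from 250 bases before to 50 after each start site. The TXNIP site has this form, with both parts in the same direction, so that its match is no test. Sites with the parts in another arrangement were not counted. The pattern occurred in 20 of the 35116 promoters in the table (0.0570%), and TXNIP was the single member among them, of 7 members with a promoter entry. Of the 20 genes, 16 were tested, with 6 above and 10 below the controls in IR+PR-LV and a median log2 fold change of -0.06. edgeR called 0 of the 16, with 4 at an unadjusted p below 0.05 beside 10.5% of all genes tested. TXNIP itself is counted in the 16, in the 4 and in the median. DESeq2 called 0 of the 19 it fitted, with 5 at its unadjusted p beside 4.71% of all entries, those with few counts included. Besides TXNIP, the 4 were HSPBAP1 (-0.44 on the log2 scale), RCN3 (-0.74) and RAN (0.15), chosen here after their values were seen. These letters mark a match and are not a measured binding site.

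Other motifs were searched the same way in the 11 promoter entries of the 7 members. PRDX1, PRDX6 and TXN2 had no promoter entry, so that their promoters were not searched for any motif. The antioxidant response element core, TGACNNNGC, was in none of the 11, beside 13.3% of all promoters. An E-box, CACGTG, was in those of PRDX3 and PRDX4, beside 7.26% of all, and a GC box, GGGCGG, in 7 of 11, beside 45.0% of all. A CCAAT box (CCAAT) was in that of TXNIP, beside 34.6% of all. The letters of a TATA box (TATAAA) were in those of TXN and TXNRD2, beside 11.5%. In TXN they lay at -30 to -25 on the strand of the gene, and at -32 to -27 on the other. In TXNRD2 they lay only on the opposite strand, at -120 to -115. A missing match says only that these letters were not in the window.

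The relatives of TXNIP and the factors that act on it gave a mixed picture. Of 7 genes tested, IR+PR-LV had 3 higher and 4 lower, with a median log2 fold change of -0.05. ARRDC4, an arrestin-related protein that also restrains glucose uptake, had 27.3, 25.6 and 46.5 TPM in the controls and 22.6, 19.4 and 23.7 TPM in the PRDM16 libraries. Its groups did not overlap, and control library 3 was again the highest. Its log2 fold change was -0.54 ± 0.18 (SE), with an unadjusted edgeR p of 0.0146 and a Benjamini-Hochberg adjusted p of 0.374, and it was -0.27 without IR+NC-LV library 3.

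ARRDC3, another arrestin-related gene and the most abundant of this list, lay in the other direction. It averaged 202 ± 26.1 TPM in the controls and 225 ± 16.1 TPM with PRDM16 (SD, n = 3 each), in overlapping groups and with a log2 fold change of 0.20 (edgeR, unadjusted p = 0.0285, Benjamini-Hochberg adjusted p = 0.416). MLXIPL was barely expressed, with 0.653 TPM in the controls and 0.427 TPM in the PRDM16 libraries and 7 to 17 counts a library, at a log2 fold change of -0.65 ± 0.41 (SE).

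Among 9807 genes with a mean of at least 10 CPM, the 3 whose profile over the 6 libraries lay nearest to that of TXNIP were CNOT4, a subunit of the CCR4-NOT complex that shortens poly(A) tails, ADTRP, and NR3C1, the glucocorticoid receptor. Nearness was the root mean square distance between centred log2 CPM, which was 0.0380, 0.0514 and 0.0536, beside a median of 0.269 over all genes compared. A gene at the same level in every library would lie at 0.238. CNOT4 followed TXNIP library by library, at 40.1, 39.2 and 51.8 CPM in the controls and 35.1, 32.8 and 36.7 CPM in the PRDM16 libraries. Like TXNIP, all 3 genes were highest in IR+NC-LV library 3. They were chosen for this likeness, so that it is no separate result.

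TXN2 (chr22:36467036-36481672, minus strand, 1576 exon bases), the mitochondrial thioredoxin, was even in the controls at 63.1, 62.9 and 62.7 TPM. IR+PR-LV had 62.4, 55.4 and 56.4 TPM, of which the first lay within 1 TPM of the controls. The groups were separate in TPM yet overlapped in normalized CPM, and the log2 fold change of -0.08 ± 0.08 (SE) had an edgeR Benjamini-Hochberg adjusted p of 0.774. With 394 to 767 counts a library, its counting error alone reached 5.04%.

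TXNRD2 (chr22:19875522-19941818, minus strand, 4953 exon bases), the mitochondrial reductase that recharges TXN2, was the least expressed of the 10. It had 16.6, 14.2 and 19.5 TPM in the controls and 16.8, 13.9 and 12.8 TPM with PRDM16, in overlapping groups. Its log2 fold change was -0.17 ± 0.13 (SE, edgeR Benjamini-Hochberg adjusted p = 0.690). It rested on 357 to 606 counts a library, the smallest counts of any member. Its cytosolic counterpart TXNRD1, the most abundant of the reductases and repair enzymes examined, had 951 ± 87.2 TPM in the controls and 982 ± 57.0 TPM with PRDM16 (SD, n = 3 each), and its log2 fold change was 0.09 ± 0.06 (SE).

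All 6 peroxiredoxins had positive log2 fold changes, of 0.03 to 0.20 with a median of 0.08, and none was called. Of the 15340 genes tested, 7839 had positive log2 fold changes. PRDX4 (chrX:23667493-23686397, plus strand, 956 exon bases), which resides in the endoplasmic reticulum and uses peroxide to drive disulfide formation in new proteins, had the largest. Its controls had 518, 553 and 565 TPM, and its PRDM16 libraries had 629, 605 and 589 TPM. All 3 PRDM16 libraries were above the highest control. The means were 545 ± 24.9 and 608 ± 20.4 TPM (SD, n = 3 each). The log2 fold change was 0.20 ± 0.06 (SE), or 1.14-fold with a 95% interval of 1.04 to 1.26, and edgeR gave an unadjusted p of 0.0113 and a Benjamini-Hochberg adjusted p of 0.348. Without IR+NC-LV library 1 the unadjusted edgeR p was 0.0667, at a log2 fold change of 0.17.

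PRDX3 (chr10:119167720-119178812, minus strand, 1553 exon bases), the peroxiredoxin of the mitochondrial matrix, was at 567, 571 and 552 TPM in the controls. The PRDM16 libraries were split, with 558 TPM in library 1, among the controls, and 642 and 648 TPM in libraries 2 and 3, above them. The log2 fold change of 0.17 ± 0.08 (SE) had an unadjusted edgeR p of 0.0559 and a Benjamini-Hochberg adjusted p of 0.484.

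PRDX1 (chr1:45511051-45522890, minus strand, 1278 exon bases), the main cytosolic peroxiredoxin here, followed the same split. Its controls had 1819, 1879 and 1760.5 TPM, and the PRDM16 libraries had 1719, 2056 and 1985 TPM, library 1 being below every control and the other two above. Its log2 fold change was 0.11 ± 0.08 (SE, edgeR Benjamini-Hochberg adjusted p = 0.684). Without IR+PR-LV library 1, the log2 fold changes of PRDX1 and PRDX3 were 0.19 and 0.23. In that setting 5 members had an unadjusted edgeR p below 0.05 (PRDX1, PRDX3, PRDX4, TXNIP and TXNRD2) against 16.4% of all genes tested, and none was called.

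PRDX2 (chr19:12796823-12801800, minus strand, 925 exon bases), a cytosolic enzyme best known from red blood cells, was at 148, 154 and 126 TPM in the controls and 149, 147 and 137 TPM with PRDM16. The groups overlapped, with control library 3 the lowest of the 6, and the log2 fold change was 0.04 with a 95% interval of -0.20 to 0.29. Without that library it was -0.07. PRDX2 had far fewer transcripts than its closest relative PRDX1, with a PRDX1 to PRDX2 ratio of 12.8 ± 0.985 in the controls and 13.4 ± 1.60 with PRDM16 (SD, n = 3 each).

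PRDX5 (chr11:64318121-64321811, plus strand, 860 exon bases), found in mitochondria, peroxisomes and cytosol, had 248, 279.8 and 240.1 TPM in the controls and 285, 240.1 and 242 TPM with PRDM16. The group means were 255.9 and 255.7 TPM, and the log2 fold change was 0.03 with a 95% interval of -0.20 to 0.27. Its sign turned to -0.04 without IR+NC-LV library 3 and to -0.05 without IR+PR-LV library 1.

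PRDX6 (chr1:173477335-173488815, plus strand, 1690 exon bases), which works with a single catalytic cysteine, draws on glutathione and also has phospholipase activity, was even across the libraries. It had 583, 572 and 598 TPM in the controls and 569, 587 and 615 TPM with PRDM16. The coefficient of variation of its normalized CPM was 2.50% in the controls and 3.17% with PRDM16, compared with 19.6% and 7.95% for TXNIP. The log2 fold change was 0.05, with a 95% interval of -0.07 to 0.18.

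The composition of the peroxiredoxin pool was also compared, as shares of the summed TPM of the 6 genes. The pool summed to between 3842 and 4276 TPM a library, or 0.384% to 0.428% of all transcripts. PRDX1 held 46.5% ± 0.599 in the controls and 46.4% ± 2.15 with PRDM16 (SD, n = 3 each). PRDX6 held 14.95% and 14.3%, PRDX3 14.4% and 14.9%, and PRDX4 13.9% and 14.7%. PRDX5 (6.54% and 6.22%) and PRDX2 (3.65% and 3.50%) held the least. The groups overlapped for all 6 shares, and the Benjamini-Hochberg adjusted p of the 2-sided exact permutation tests lay between 0.72 and 1.

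In total, 52 partner genes of the chain were examined beside the members. edgeR tested 50 of them and called 0. IR+PR-LV had 34 above the controls and 16 below, beside 7839 above and 7501 below of all genes tested. SESN2, MLXIP and MSRA are each listed as 2 copies and NXN as 3, and 1 copy of each entered the counts of partner genes. The copy of SESN2 had 0 to 1 counts a library and was not tested. With copies summed, edgeR tested 51 partner genes and called 0. At an unadjusted edgeR p below 0.05 there were 6 of 50, 4 higher and 2 lower, beside 10.5% of all genes tested. DESeq2 called 0 of the 51 it fitted, with 8 at its unadjusted p beside 4.71% of all entries, those with few counts included. The median log2 fold change of the 50 was 0.06.

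The list of oxidative folding in the endoplasmic reticulum, where PRDX4 works, had 7 of its 8 tested genes higher and a median log2 fold change of 0.12. Of all 15340 genes tested, 7839 were higher, and no gene of the list was called. PDIA6, a protein disulfide isomerase, had 245, 237 and 252 TPM in the controls and 291, 270.2 and 268 TPM in the PRDM16 libraries. Its groups did not overlap, and the log2 fold change was 0.22 ± 0.06 (SE, edgeR, unadjusted p = 0.00506, Benjamini-Hochberg adjusted p = 0.274). PDIA3, which folds glycoproteins, also stood higher in all 3 PRDM16 libraries, at 525 ± 9.63 TPM beside 487 ± 12.6 TPM (SD, n = 3 each). Its log2 fold change was 0.15 (edgeR, unadjusted p = 0.0197, Benjamini-Hochberg adjusted p = 0.396). Without IR+PR-LV library 2 the unadjusted edgeR p of PDIA3 was 0.0689. P4HB, the most abundant disulfide isomerase of the list, overlapped between groups at 1053 and 1126 TPM, with a log2 fold change of 0.13.

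**Figure D4:**
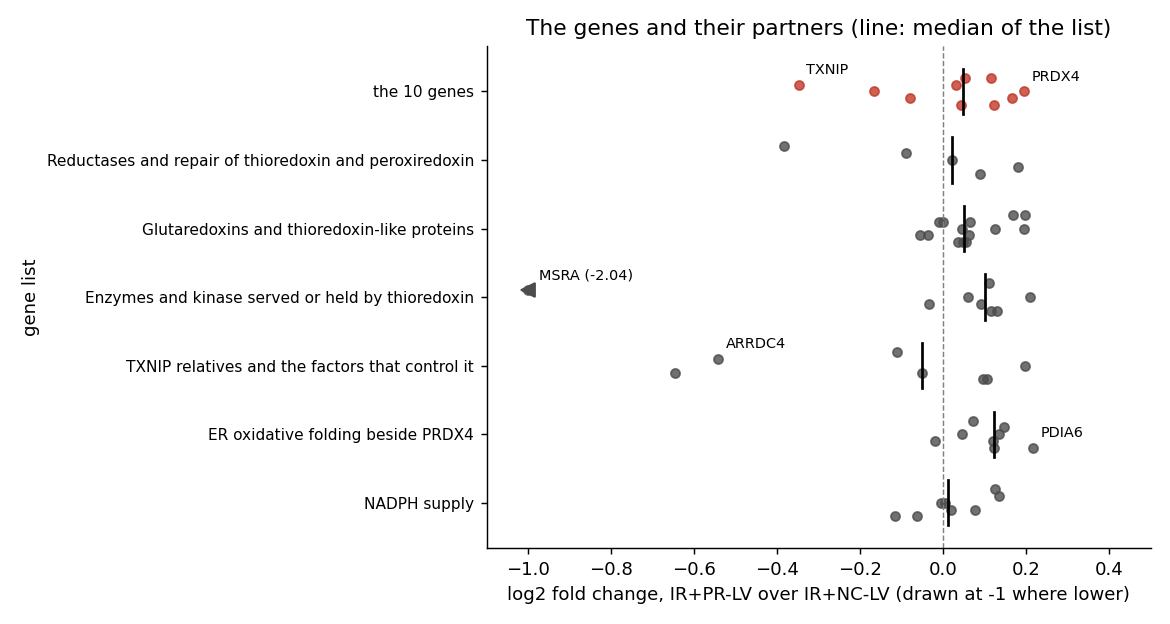
Log2 fold changes (IR+PR-LV over IR+NC-LV) of the 10 genes and of the tested partner genes by list, 1 point a gene, with the list median as a line and MSRA drawn as an arrow at the edge. The list medians lie between -0.05 and 0.12, the highest being that of the folding genes beside PRDX4, and ARRDC4 (-0.54), MLXIPL (-0.65) and MSRA (-2.04) lie farthest below.

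Of 14 glutaredoxins and thioredoxin-like proteins, 10 were higher and 4 lower with a median log2 fold change of 0.05. TMX1, a membrane-bound member of the endoplasmic reticulum and the most abundant of the list, averaged 168 and 187 TPM in overlapping groups. Its log2 fold change was 0.20 (edgeR, unadjusted p = 0.0429, Benjamini-Hochberg adjusted p = 0.456). TXNDC12, of the same compartment, had the same log2 fold change of 0.20. Of 8 genes of NADPH supply, 5 were higher and 3 lower with a median of 0.01, TALDO1 of the pentose phosphate pathway being the most abundant (307 and 315 TPM) and IDH1, a cytosolic isocitrate dehydrogenase, having the largest difference (0.13). Of 5 reductases and repair enzymes tested, 3 were higher and 2 lower with a median of 0.02, and SESN3, a stress-induced sestrin below 1 TPM in every library, had the largest difference (-0.38).

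Of 8 genes for enzymes served by thioredoxin and for a kinase held by it, 6 were higher and 2 lower with a median of 0.10. RRM1, the large subunit of ribonucleotide reductase, was the most abundant, with 231 and 246 TPM and a log2 fold change of 0.13. MSRA, which repairs oxidized methionine, had the largest difference of any partner, at 1.75, 0.873 and 1.26 TPM in the controls and 0.383, 0.456 and 0 TPM in the PRDM16 libraries. Its groups did not overlap, and the log2 fold change was -2.04 ± 0.59 (SE, edgeR, unadjusted p = 0.00692, Benjamini-Hochberg adjusted p = 0.307). MSRA is listed as 2 copies, however, and the second copy had a log2 fold change of 0.40 ± 0.33 (SE). Whether the copies share reads was not tested. With both copies summed, the log2 fold change of MSRA was -0.30 and its unadjusted edgeR p was 0.282.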

How the data were processed

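The 10 genes, the lists of partners and markers, the ratios and the motifs were chosen with earlier results of these data known. Per the labels, RNA was made into libraries with the NEBNext Ultra kit, and the submitters' processing notes name CASAVA, featureCounts 2.0.1, DESeq2 1.16.1 and hg38. The aligner and the strand setting are not given in the sources used here. The authors deposited unnormalized counts per gene, TPM and FPKM for each of the 6 libraries. TPM served for levels, ratios and shares, and FPKM, derived from the same counts, was checked and not used further.

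Counts were tested with edgeR 4.0.16 in R 4.3.3 (filterByExpr with a minimum count of 10, TMM factors of 0.981 to 1.04, quasi-likelihood test without covariates), and p-values were adjusted by Benjamini-Hochberg over 15340 genes and gene copies. The biological coefficient of variation was 0.106. Normalized CPM was scaled by the TMM factors. Members had 357 to 23069 counts, a counting error of 0.658% to 5.29% that covers counting only. Exact permutation tests used scipy 1.17.1. The alternatives were DESeq2 1.42.0, other normalizations and filters, copies summed, a replicate block and leaving out each library. The tests were checked on simulated data.

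All members were named. Of the partner lists, genes at an unadjusted p below 0.05 were named, and in each list the gene with the most TPM and the one with the largest difference. The 3 genes nearest to TXNIP and PRDM16 were named as well. Protein sequences were not used here.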

Additional observations from a re-analysis of the deposited data

How the results depend on the processing

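The count of genes called over the whole table moved most with the setting. It was 10 as reported, 168 with DESeq2, which was fitted without the filter on low counts (28831 entries in place of 15340) and so differs in 2 choices, 342 with no filter beyond 1 count and 3 with a replicate block, and it ran from 1 (without IR+NC-LV library 1 or IR+PR-LV library 3) to 28 (without IR+NC-LV library 2) when a library was left out. With no filter beyond 1 count, 1 member was called (TXNIP, -0.34) and 2 partner genes (MSRA and ARRDC4), and under each other setting none. Deviations from the group means correlated at 0.0004, 0.061 and 0.086 between same-numbered libraries. Between libraries of different numbers the correlations ran from -0.105 to 0.064. With 3 libraries a group, these values cannot decide whether the numbers pair the samples. The replicate block called no member, and with it the unadjusted edgeR p was 0.00466 for TXNIP and 0.0166 for PRDX4.

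Leaving out a library turned the sign for PRDX2 (range -0.065 to 0.13, the lowest without IR+NC-LV library 3), for PRDX5 (range -0.055 to 0.13, below 0 without IR+PR-LV library 1 and, at -0.045, without IR+NC-LV library 3) and for the share of PRDX1. The difference of that share, -0.14 percentage points as reported, ranged from -0.99 to 1.07 and was 0.025, 0.040 and 1.07 without IR+NC-LV library 1, IR+NC-LV library 2 and IR+PR-LV library 1. The cause was not tested. For the other 8 members the sign of the fold change held under every setting. TXNIP ranged from -0.44 to -0.17 and PRDX4 from 0.17 to 0.23, with edgeR or DESeq2 adjusted p between 0.210 and 0.799 for PRDX4. Ranked by CPM, which favours long transcripts, TXN stood at 280, TXN2 at 6869, PRDX1 at 123, PRDX2 at 5684, PRDX3 at 634, PRDX4 at 1321, PRDX5 at 3825 and PRDX6 at 565.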

Other observations

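Beside TXNIP to TXN, 7 further ratios between these genes were formed within each library, chosen with the data known. In 1 of the 7 the groups did not overlap. TXN exceeded TXN2 by 31.9, 33.6 and 29.9 times in the controls and by 34.4, 36.8 and 38.7 times in the PRDM16 libraries. The difference in mean log2 ratio was 0.21 (2-sided exact permutation test, p = 0.1, the smallest that this design allows). The ratio of the mitochondrial peroxiredoxin to its thioredoxin, PRDX3 to TXN2, was 8.99, 9.07 and 8.80 in the controls and 8.95, 11.6 and 11.5 with PRDM16, where library 1 again lay with the controls (exact permutation p = 0.3).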
